A study of Rattus norvegicus with 36 samples.

Results

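Interferon response genes are the genes that cells switch on after an interferon has bound its receptor. A list of 45 of them was chosen from known function: transcription factors of the pathway, antiviral effectors, sensors and feedback genes, guanylate-binding GTPases, chemokines, and the machinery that loads peptides on class I molecules. The choice was made with earlier results of these data known. Of the 45 listed, 42 had a probe set with a single annotated symbol equal to the gene, among 14217 genes measured on the rat arrays. Ifi47, Xaf1 and Trim21 were not analysed here. Where a gene had several probe sets, the one of median mean signal was used, which applied to 11 of the 42.

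The series compared injured with uninjured vocal folds of male Fischer 344 rats, and fibroblasts grown from such tissue. Post-injury (PI) mucosa was taken 3, 14 and 60 days after surgical injury of rats that were 120 days old at the start, on 5 arrays at each time. Age-matched uninjured control mucosa was measured on 3, 3 and 2 arrays at the same times, so that rats were 123, 134 and 180 days old at harvest, and each mucosa array held the pooled tissue of 4 rats. The study's methods divide the 60-day arrays otherwise between PI and control, and the labels were followed here. Cultures numbered 3 with siRNA against gp46 (the collagen chaperone encoded by Serpinh1), 3 with scramble siRNA, 4 of untreated scar fibroblasts and 3 of naive fibroblasts. All 13 cultures, naive ones included, were explant-derived from the tissue of 1 rat each that was 120 days old at the start and 180 at harvest, were at passage 1 and 80% confluence, and grew in medium with 10% serum. Scar fibroblasts came from tissue 60 days after injury, and the siRNA cultures were scar fibroblasts that received 50 nM siRNA in liposomes for 1 h and then fresh medium for 24 h. Values were log2 signals on a scale that reached 2.72 at its lowest and 14.7 at its highest, and p-values measured only the spread between these arrays.

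Type I interferons are secreted by cells that sense foreign or misplaced nucleic acid, and type II interferon by T and natural killer cells. Their receptors signal through JAK kinases to STAT proteins, and a complex of STAT proteins with IRF9 binds the interferon-stimulated response element (ISRE) in front of antiviral genes, whereas STAT dimers bind the gamma-activated site (GAS). The products block viral replication, display peptides to T cells, attract lymphocytes and, through SOCS1 and USP18, turn the signal down again.

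The letters of these motifs stood in the promoters of many of the listed genes. In the RefSeq promoter windows of the rat assembly GRCr8, from 250 bases before to 50 bases after the gene start, the ISRE letters GAAANNGAAA on either strand stood in 24 of the 38 listed genes with an entry (63.2%), against 1034 of all 27457 promoters (3.77%). The palindromic GAS letters TTCNNNGAA stood in 13 of 38 (34.2%), against 2382 of 27457 (8.68%), and 6 of the 38 held both, with overlapping letters in 1 of them, Bst2. A match is a description of the letters, not a shown binding site. Of the 8 genes that changed 3 days after injury, 7 had an entry. The ISRE letters stood in 3 of these 7, beside the 63.2% of the listed genes with an entry. Windows of 120 bases are printed for those 4 of the 7 that held the letters of either motif. They read 5′ to 3′ on the gene's strand, with the motif letters in capitals. For Ifit3 (chr1:241527206-241527325, + strand), Gbp2 (chr2:234005607-234005726, + strand) and Ifi44 (chr2:243303841-243303960, − strand) the window ends at the base before the start. For Irf8 (chr19:65699084-65699203, + strand) it runs from 200 to 81 bases before it.
Ifit3: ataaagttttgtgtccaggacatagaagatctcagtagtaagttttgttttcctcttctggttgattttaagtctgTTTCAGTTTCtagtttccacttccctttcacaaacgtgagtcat
Gbp2: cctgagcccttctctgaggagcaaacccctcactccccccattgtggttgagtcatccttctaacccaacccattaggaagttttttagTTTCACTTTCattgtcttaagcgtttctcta
Ifi44: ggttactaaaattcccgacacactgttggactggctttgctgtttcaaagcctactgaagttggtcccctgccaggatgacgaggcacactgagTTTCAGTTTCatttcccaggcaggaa
Irf8: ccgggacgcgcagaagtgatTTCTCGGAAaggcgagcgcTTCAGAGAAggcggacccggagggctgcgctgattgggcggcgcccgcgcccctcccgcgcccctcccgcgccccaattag
In the printed windows the ISRE letters began 44 bases before the start in Ifit3, 31 in Gbp2 and 26 in Ifi44, each as the reverse strand form TTTCNNTTTC. Ifi44 held a second match at position 27 past its start, outside the printed window. Irf8 held no ISRE letters but GAS letters at 180 and at 161 bases before its start. Mx1, Oasl and Parp9, which also changed at 3 days, held neither set of letters in these windows.

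Arrays and labels were checked before the comparisons. A PI array at 3 days (replicate 5), a control array at 14 days (replicate 3) and a PI array at 60 days (replicate 4) deviated from their groups in the same way, with correlations of 0.45 to 0.61 between their deviations over all genes. Counts and values that moved without them are given beside the results. Epithelium was present in all mucosa arrays (Krt5 12.9 to 13.7, Epcam 12.6 to 13.01), as was skeletal muscle (Ckm 12.8 to 14.5). In the cultures Col1a1 was 13.7 to 14.6 whereas Epcam was 4.56 to 5.68 and the T cell marker Cd3e was 5.31 to 5.69. Muscle transcripts were present in the untreated cultures. Ckm was 5.03 to 9.94 in untreated scar and 5.07 to 7.51 in naive cultures, and the muscle actin Acta1 was 10.2 to 13.2 and 8.79 to 11.4.

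The interferon response genes differed widely in level between mucosa and culture. Mx1, a GTPase that blocks influenza virus replication in rodents, ranged over 8.65 to 11.3 on the 23 mucosa arrays but over 3.77 to 5.36 on the 13 fibroblast arrays. Irf8, a transcription factor of myeloid cells, likewise did not overlap between fibroblasts and mucosa, and neither did the lymphocyte-attracting chemokines Cxcl9 and Cxcl11, nor Bst2, which tethers budding virions to the cell. Others were at about the same level in both: Tap1, a chain of the peptide transporter, averaged 8.82 in fibroblasts and 8.87 in mucosa, and Irf9 averaged 8.82 in fibroblasts and 8.83 in mucosa. B2m, the invariant chain of class I molecules, was near the top of the scale in both, at 13.7 to 14.1 in fibroblasts and 13.9 to 14.2 in mucosa. Mucosa is a mixture of cell types and culture changes cells, so these levels are a description and were not tested.

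At 3 days, the question was which of these genes injury had moved in the acute wound. Of the 42, 8 passed limma's moderated test at an adjusted p under 0.05, with Benjamini-Hochberg adjustment over all genes: Ifit3, Gbp2, Irf8, Oasl, Ifi44, Ifit1 and Parp9 were higher in PI mucosa than in control, and Mx1 was lower. The background was large, since 26.6% of all genes passed (14.6% higher, 12% lower), so that 8 of 42 is no larger a share than that of all genes. The median difference was 0.21 (log2) over the 42 and 0.01 over all genes, and 32 of the 42 lay above 0, against 51.5% of all genes. PI replicate 4 was the highest of its group for 24 of the 42 (15.8% of all genes). Control replicate 3 was the lowest of its group for 25 (31.3% of all genes). The 42 are therefore not separate observations of injury. PI and control arrays did not overlap for 9 of the 42, against 31.2% of all genes.

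Ifit3, which binds viral RNA together with Ifit1, was 7.96, 6.89, 7.90, 8.39 and 6.71 in 3-day PI mucosa, against 5.70, 6.59 and 5.80 in control (2.91-fold higher, log2 1.54 ± 0.55 SE, adjusted p = 0.0415). All PI arrays lay above all controls, although the lowest PI array stood only just above the highest control. Ifit1 itself was 5.93, 5.99, 6.10, 5.76 and 5.73 in PI, against 5.65, 5.51 and 5.42 in control, a smaller and again non-overlapping difference of 0.37 ± 0.11 (adjusted p = 0.0148). Ifit1 signals were dim, with a mean at percentile 15.6 of all genes. Oasl, a relative of the oligoadenylate synthetases that sense double-stranded RNA, was 7.71, 7.58, 8.16, 8.43 and 7.05 in PI, against 7.05, 7.21 and 6.95 in control (log2 0.71 ± 0.23, adjusted p = 0.0236). PI replicate 5 lay within the controls for Oasl, and the other 4 lay above them. Ifi44, an interferon-induced protein, was 7.68, 7.85, 7.85, 7.92 and 7.66 in PI, against 7.46, 7.34 and 7.14 in control (log2 0.48 ± 0.13, adjusted p = 0.0105), without overlap.

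Mx1 went the other way. It was 8.65, 9.17, 9.12, 9.85 and 9.44 in 3-day PI mucosa, against 10.96, 9.95 and 10.59 in control, so that every PI array lay below every control (2.38-fold lower, log2 -1.25 ± 0.27, adjusted p = 0.00134). Bst2 was lower in PI too, at 11.72, 11.33, 11.57, 11.51 and 10.54 against 11.82, 11.95 and 11.77 in control, but it did not pass the test (log2 -0.51 ± 0.22, adjusted p = 0.0994). Of the 17 antiviral effectors measured, 5 passed, 4 of them higher and Mx1 lower. Mx2 (0.24), Isg15 (0.75), Rsad2 (0.43), Oas1a, Oas1b (0.66), Ifit2, Ifi27, Isg20 (-0.43), Eif2ak2 (0.45), Rtp4 (0.45), Samhd1 (0.44) and Bst2 did not.

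Among the other roles, Gbp2, a GTPase that coats intracellular vacuoles of microbes, was 9.93, 10.00, 10.19, 10.15 and 9.98 in 3-day PI mucosa, against 8.88, 9.46 and 9.33 in control (1.77-fold, log2 0.83 ± 0.15, adjusted p = 0.000383). Irf8 was 9.88, 10.23, 10.27, 10.26 and 10.32 in PI, against 9.15, 9.74 and 9.22 in control (1.77-fold, log2 0.82 ± 0.18, adjusted p = 0.00187). Neither overlapped with control. Gbp2 was tight among the PI arrays, whereas Irf8 was lower in PI replicate 1, which lay close above the highest control. Parp9, an ADP-ribosyltransferase family member, was 8.97, 9.05, 9.26, 9.32 and 9.14 in PI, against 8.65, 8.99 and 8.72 in control, with PI replicate 1 just below the highest control (log2 0.36 ± 0.13, adjusted p = 0.0466). None of the 9 class I processing genes passed limma's test, and their differences lay between -0.09 and 0.22. A second probe set of B2m, which was not used, was lower in PI by 0.33 (log2 -0.33 ± 0.07, adjusted p = 0.00139 over probe sets), whereas the chosen set differed by -0.06, so that B2m was uncertain at 3 days. Neither chemokine passed (Cxcl9 0.08, Cxcl11 -0.33).

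Irf8, Gbp2 and Mx1 kept their call in all 18 alternatives tried, including each array left out in turn. The count of 8 fell to 5 without PI replicate 3, PI replicate 4 or control replicate 1, and to 3 without control replicate 3. The shares of all genes that passed without these single arrays are not given here, so these counts are not set against the background. Ifit1 and Ifi44 lost their call without control replicate 3 (adjusted p up to 0.0861 and 0.0775), and Oasl without PI replicate 3 or 4 or control replicate 1 or 3 (up to 0.0939). Ifit3 lost it without PI replicate 1, 3 or 4 or control replicate 1 or 3 (up to 0.149), and Parp9 without any PI replicate but the first, or without control replicate 1 or 3 (up to 0.203). Oasl was also lost with the compared arrays alone (adjusted p = 0.0837 in limma's test), Ifit3 and Parp9 with repeated quantile normalization (0.052 and 0.0716) and Parp9 with the replicate block (0.0961). The lognormal-normal model did not call Oasl, Ifit1 or Parp9. Without the 3 arrays that deviated together 14 of the 42 passed, 13 higher and Mx1 lower, beside 5478 of all genes.

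**Figure D1:**
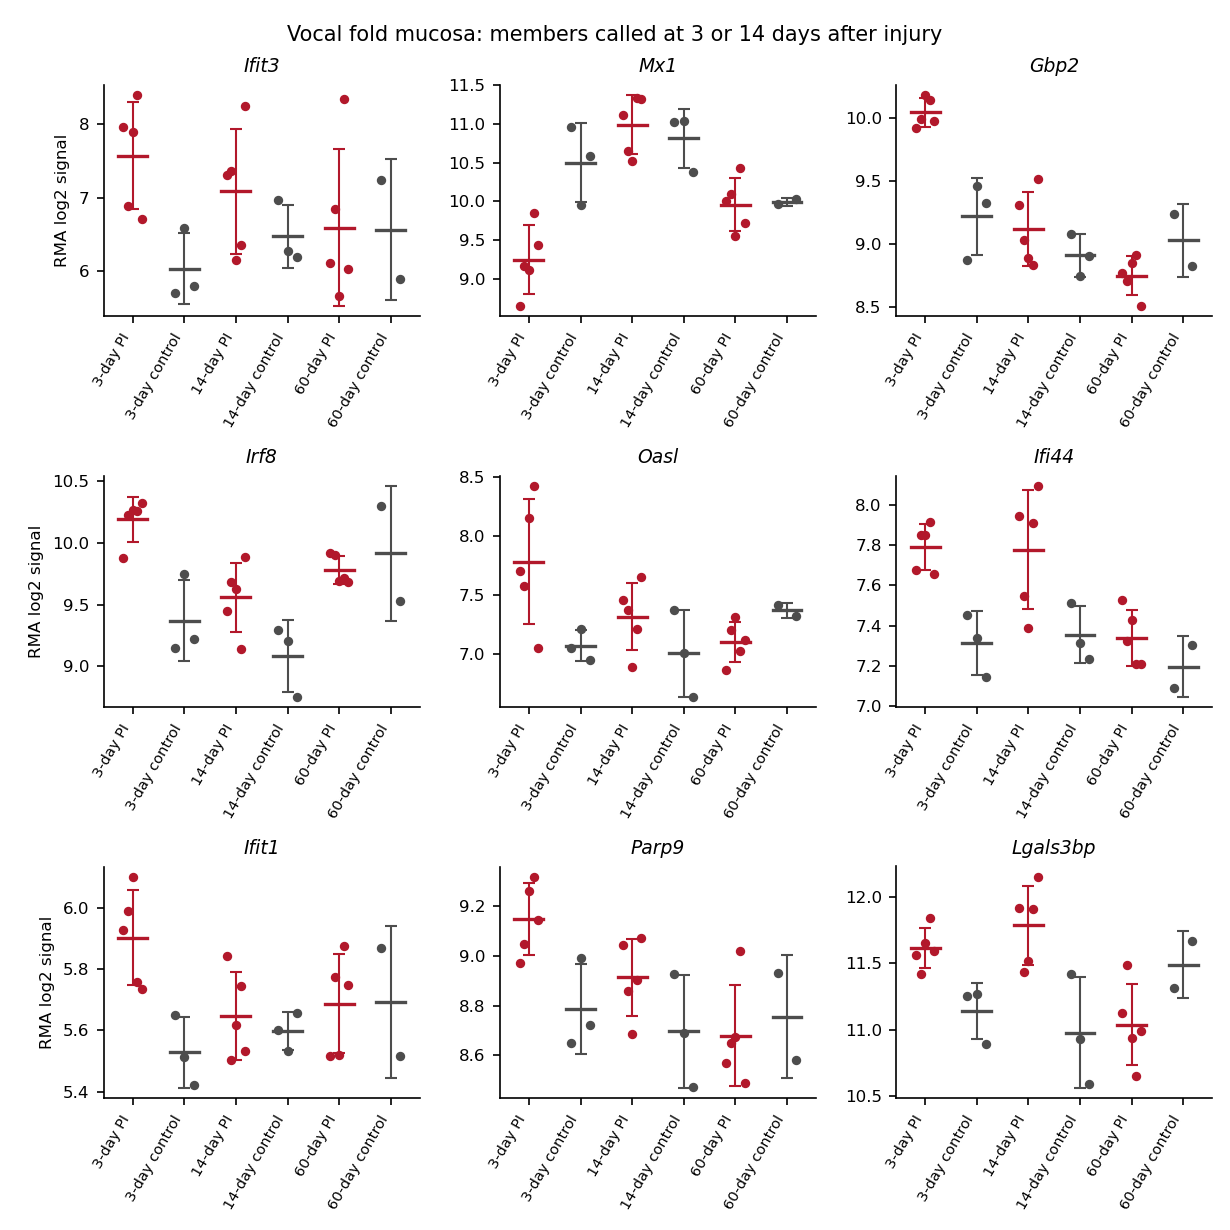
Log2 signal of the 8 interferon response genes called at 3 days and of Lgals3bp (called at 14 days) on each of the 23 mucosa arrays, PI in red and control in grey at 3, 14 and 60 days; each point is an array, the bar is the group mean and the whisker its SD. All PI arrays of Gbp2 and Irf8 lie above all controls at 3 days only, Mx1 dips at 3 days, and Lgals3bp is highest in PI at 14 days.

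The cell mixture moved at 3 days as well, and fewer cells of a type and less RNA per cell cannot be told apart in bulk tissue. Of 10 fibroblast markers 6 were higher in PI (summed linear signal 92528 to 101713, against 58657 to 67168 in control), and 6 of 7 skeletal muscle markers were lower (55003 to 83094 in PI, against 76517 to 112264 in control). Of 4 neutrophil markers measured 3 were higher (465 to 4639 in PI, against 222 to 575 in control). Macrophage markers were mixed, with 1 higher and 2 lower of 9 (28485 to 35312 in PI, against 31596 to 44921 in control), and so were T and natural killer cell markers (1 higher and 1 lower of 12). Of 5 dendritic cell markers 2 were lower (1521 to 1836 in PI, against 1632 to 2698 in control). Of 5 endothelium markers 2 were higher (3697 to 4231 in PI, against 3296 to 3824 in control), and so were 2 of 9 epithelium markers (68141 to 76624 in PI, against 61828 to 79570 in control). The part of these shifts in the values of Irf8, Gbp2, Mx1 and the other interferon response genes was not tested.

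Outside the list of 42, other genes of the pathway were followed in 4 further lists. Of 9 interferons and receptors measured, only Ifnk, an epithelial type I interferon, passed at 3 days (log2 0.64 ± 0.12, adjusted p = 0.00049), and none passed limma's test at 14 or 60 days. Of 16 signal transducers and regulators 3 were higher at 3 days, among them the kinase Jak2 (log2 1.37 ± 0.25, adjusted p = 0.00036) and the feedback inhibitor Socs3 (0.91 ± 0.24, adjusted p = 0.0074), and Irf3 and Pias1 were lower. Of 12 nucleic acid sensors and adaptors, only the mitochondrial adaptor Mavs passed, lower by 0.36 ± 0.09 (log2 -0.36, adjusted p = 0.0034). Of 31 further interferon-stimulated genes 4 were higher: Slfn4 (1.84 ± 0.53, adjusted p = 0.0132), Ddx60 (1.19 ± 0.34, adjusted p = 0.0121), Gbp4 (0.74 ± 0.20, adjusted p = 0.0093) and Parp12 (0.37 ± 0.10, adjusted p = 0.0067). In all 4 lists together 11 of 68 genes passed at 3 days, against the same 26.6% of all genes. The effect at 60 days against that at 3 days passed for 10 of the 68 (3 higher, 7 lower), against 13.5% of all genes, and 31 of the 68 changed across the PI groups, against 38.5% of all genes.

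At 14 days the differences were broad in direction and rarely past the threshold. Of the 42, 41 were higher on average in PI than in control mucosa and only B2m was lower (log2 -0.02), with a median of 0.38 against -0.00 over all genes, of which 49.7% lay above 0. A single gene, Lgals3bp, passed the test, against 3.03% of all genes (2.08% higher, 0.95% lower). At an unadjusted p under 0.05 there were 18 of 42, all higher, against 12.8% of all genes. These 18 became 5 without control replicate 3 (9.91% of all genes) and 6 without the 3 arrays that deviated together (15.3% of all genes). PI and control arrays did not overlap for 3 of the 42 (Lgals3bp, Socs1 and Parp14), against 14.1% of all genes.

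Lgals3bp, a secreted glycoprotein that binds galectins, was 11.92, 11.44, 11.52, 11.91 and 12.15 in 14-day PI mucosa, against 11.42, 10.93 and 10.59 in control (1.76-fold, log2 0.81 ± 0.19, adjusted p = 0.022). The lowest PI array was within 0.02 of the highest control. At 3 days Lgals3bp did not pass, although it ranged over 11.42 to 11.84 in PI and 10.89 to 11.27 in control, also without overlap. Larger differences at 14 days did not pass, and the arrays of each group were far apart for them. Isg15, the ubiquitin-like modifier, was 9.89, 9.23, 7.64, 9.30 and 10.70 in PI, against 9.16, 7.63 and 6.66 in control (log2 1.53 ± 0.59, adjusted p = 0.203). Mx2, the cytoplasmic relative of Mx1, was 8.85, 7.74, 7.003, 8.06 and 9.21 in PI, against 7.73, 6.89 and 6.77 in control (log2 1.04 ± 0.39, adjusted p = 0.185). Both spanned more than 2 log2 units within PI and overlapped with control. Rsad2 (viperin, which makes a chain-terminating nucleotide) differed by 0.94 ± 0.34, Cxcl11 by 0.75 ± 0.35, Irf7, the inducer of type I interferon genes, by 0.73 ± 0.32, and Cxcl9 by 0.72 ± 0.28, with adjusted p of 0.177 to 0.375 in limma's test. Single arrays set some of these sizes: without control replicate 3, Isg15 differed by 0.96 and Irf7 by 0.38, whereas without control replicate 1 Irf7 differed by 1.15. Without PI replicate 5, Cxcl11 differed by 0.42.

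The arrays of 14 days ordered alike for most of these genes. PI replicate 5 was the highest of 5 for 39 of the 42, whereas it was so for 17.8% of all genes, and PI replicate 3 was the lowest for 24 (18.2% of all genes). Control replicate 1 was the highest of 3 for 38 of the 42 (32.7% of all genes) and control replicate 3, which deviated over the genome, the lowest for 34 (40.9% of all genes). The 42 values of an array are therefore not 42 separate observations of injury. Without control replicate 3, 39 of the 42 remained above 0 with a median of 0.28 and none passed, Lgals3bp included (its adjusted p ran up to 0.201 over the alternatives). It also lost its call without PI replicate 1, PI replicate 5 or control replicate 2, and in the lognormal-normal model, whereas 4 passed without PI replicate 3 and 3 without PI replicate 4. Shares of all genes for these counts of calls are not given here. The other lists gave no call at 14 days in limma's test, and 28 of the 31 further interferon-stimulated genes were above 0, with a median of 0.28. Of the markers, 3 of 10 for fibroblasts were higher at 14 days (67707 to 78654 in PI, against 59728 to 62943 in control), 1 of 4 for B and plasma cells was higher (1691 to 3541 in PI, against 607 to 975 in control) and 1 of 9 for macrophages was lower (22934 to 30504 in PI, against 30891 to 32921 in control). An endothelium marker of 5 was higher (3820 to 4458 in PI, against 3494 to 3700 in control) and 1 of 12 T and natural killer cell markers was lower (1129 to 1528 in PI, against 1171 to 2051 in control). Their part in the result was not tested.

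**Figure D2:**
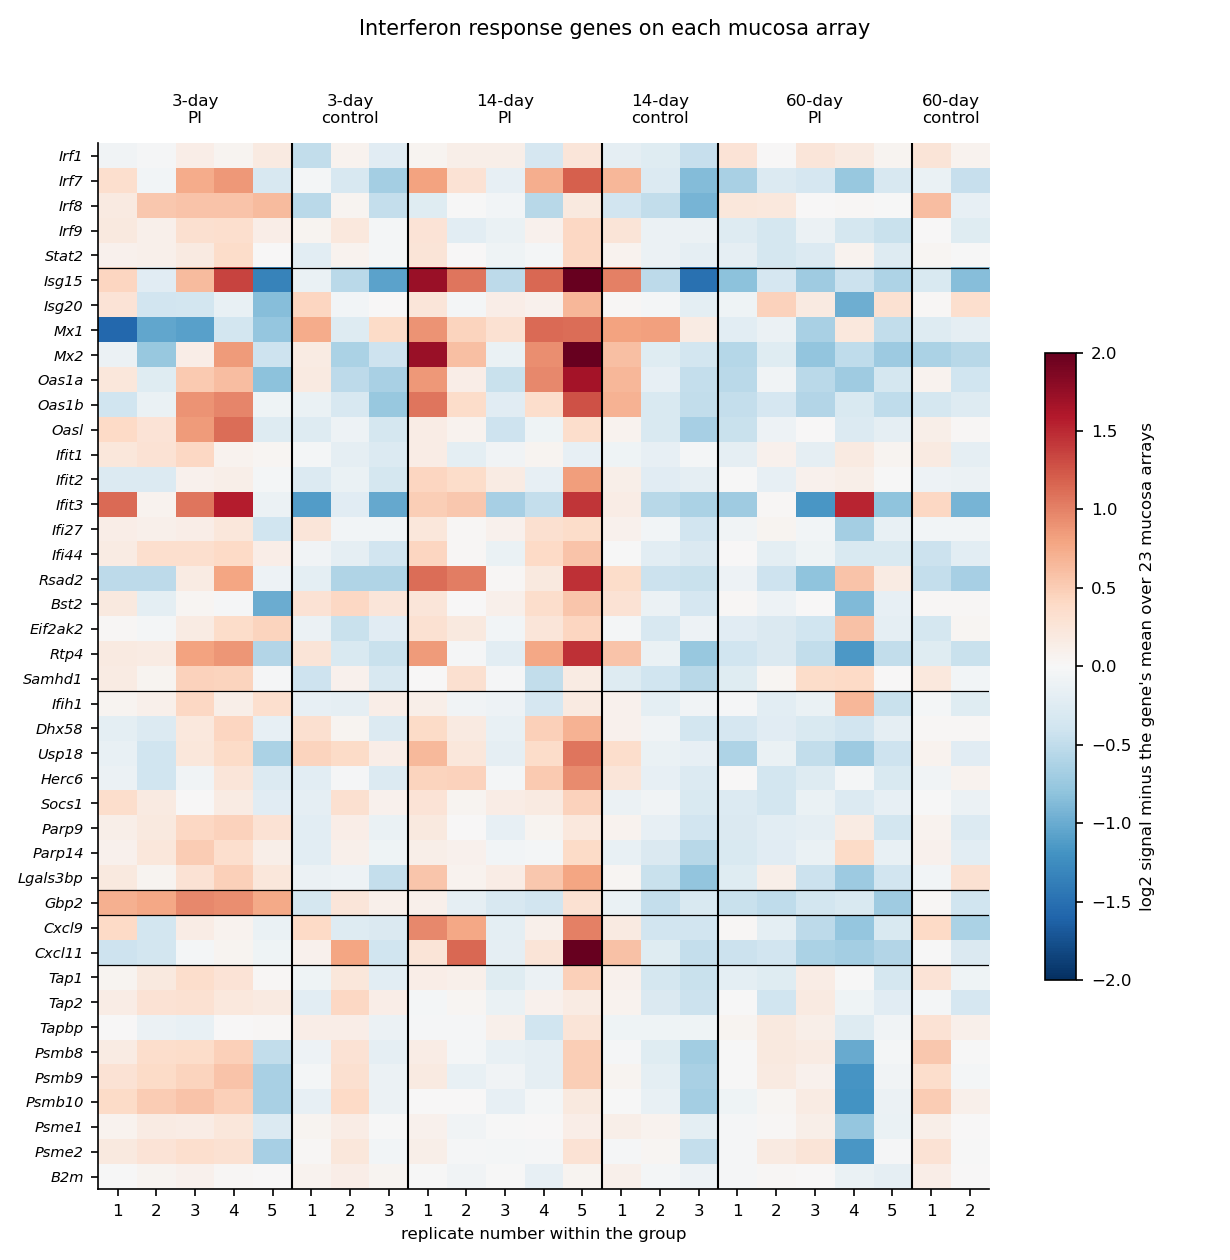
Heat map of the 42 interferon response genes (down the page, by role) over the 23 mucosa arrays (across), coloured by log2 signal minus the gene's mean over those arrays, with the scale capped at 2 log2 units either way. The 14-day PI replicate 5 column is the warmest for most genes, being the highest of its group for 39 of 42.

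At 60 days no interferon response gene passed limma's test (lowest adjusted p = 0.569), none had an unadjusted p under 0.05, and none passed in the lognormal-normal model. The background was low too, with 0.0563% of all genes. The median of the 42 was -0.18 (-0.03 over all genes), and 9 lay above 0, against 43% of all genes. Control replicate 1 was the higher of the 2 controls for 34 of the 42 (55.5% of all genes). The 42 values of an array are therefore not separate observations here either. PI and control did not overlap for 4 of the 42, Oasl, Dhx58 (a regulator of RNA sensors), Socs1 and Cxcl11, all lower in PI, against 12.4% of all genes. Psmb10, an immunoproteasome subunit, was 9.60, 9.72, 9.85, 8.48 and 9.56 in 60-day PI mucosa, against 10.19 and 9.78 in control (log2 -0.54 ± 0.32, adjusted p = 0.683). Lgals3bp was 11.13, 11.49, 10.94, 10.65 and 10.99 in PI, against 11.31 and 11.67 in control (log2 -0.45 ± 0.22, adjusted p = 0.569). Rsad2 was 7.95, 7.63, 7.26, 8.62 and 8.21 in PI, against 7.58 and 7.39 in control (log2 0.45 ± 0.39, adjusted p = 0.791). For Rsad2 and Lgals3bp the groups overlapped, and Psmb10 did so in 1 PI array that lay above a control. Only 2 control arrays stood behind these values, and the study's methods divide the 60-day arrays otherwise. Without PI replicate 4, which deviated over the genome, Psmb10 differed by -0.30 and Rsad2 by 0.27, and none of the 42 passed. Without control replicate 1 Psmb10 differed by -0.34, and without control replicate 2 Lgals3bp differed by -0.27. Of 9 macrophage markers 1 was lower (20523 to 27275 in PI, against 32720 to 34951 in control), and its part in these values was not tested.

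The difference of the injury effects was tested directly. Mx1 was the only one of the 42 whose injury effect at 14 days differed from that at 3 days in limma's test, by 1.43 ± 0.38 (adjusted p = 0.0213), against 8.01% of all genes. The second probe set of B2m, which was not used, differed as well (log2 0.38 ± 0.10, adjusted p = 0.0218 over probe sets). At 14 days Mx1 was 11.12, 10.65, 10.52, 11.34 and 11.32 in PI, against 11.02, 11.04 and 10.38 in control, a difference of 0.18, where at 3 days it was -1.25. The call was lost without 14-day control replicate 3, 3-day control replicate 1 or 3-day control replicate 3 (adjusted p up to 0.0853), and the count rose to 2 without 14-day PI replicate 5 or 3-day control replicate 2. At 60 days against 3 days the injury effect was lower for Gbp2 (log2 -1.11 ± 0.23, adjusted p = 0.00305), Irf8 (-0.95 ± 0.28, adjusted p = 0.0248) and Lgals3bp (-0.93 ± 0.29, adjusted p = 0.0395), and it was higher for none of the 42, against 13.5% of all genes (4.78% higher, 8.7% lower). At 60 days Gbp2 was 8.77, 8.71, 8.85, 8.92 and 8.51 in PI, against 9.24 and 8.83 in control, and Irf8 was 9.91, 9.90, 9.69, 9.71 and 9.69 in PI, against 10.30 and 9.53 in control. Gbp2 kept this call in all 21 alternatives, whereas Irf8 lost it without 3-day control replicate 1 or 3 or without 60-day control replicate 1 (adjusted p up to 0.281, with a difference of -0.57 without the last), and Lgals3bp without 3-day PI replicate 3 or 4, 60-day PI replicate 3 or 5, or any 1 of 3-day control replicates 1 and 3 and the 60-day controls (up to 0.202). The count of 3 was 1 without 3-day control replicate 1 or 3 or 60-day control replicate 1, and 5 without 3-day PI replicate 5 or 60-day PI replicate 4. Shares of all genes for these counts of calls with an array left out are not given here. The 60-day effects against those at 14 days gave no call among the 42 in limma's test (lowest adjusted p = 0.154), against 0.0774% of all genes, with a median of -0.52 (-0.04 over all genes). At an unadjusted p under 0.05 there were 11 of the 42, all lower, against 7.14% of all genes, and 4 without 14-day control replicate 3 or without 14-day PI replicate 5. Isg15 (-1.54), Lgals3bp (-1.27) and Cxcl11 (-1.15) differed most there.

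**Figure D3:**
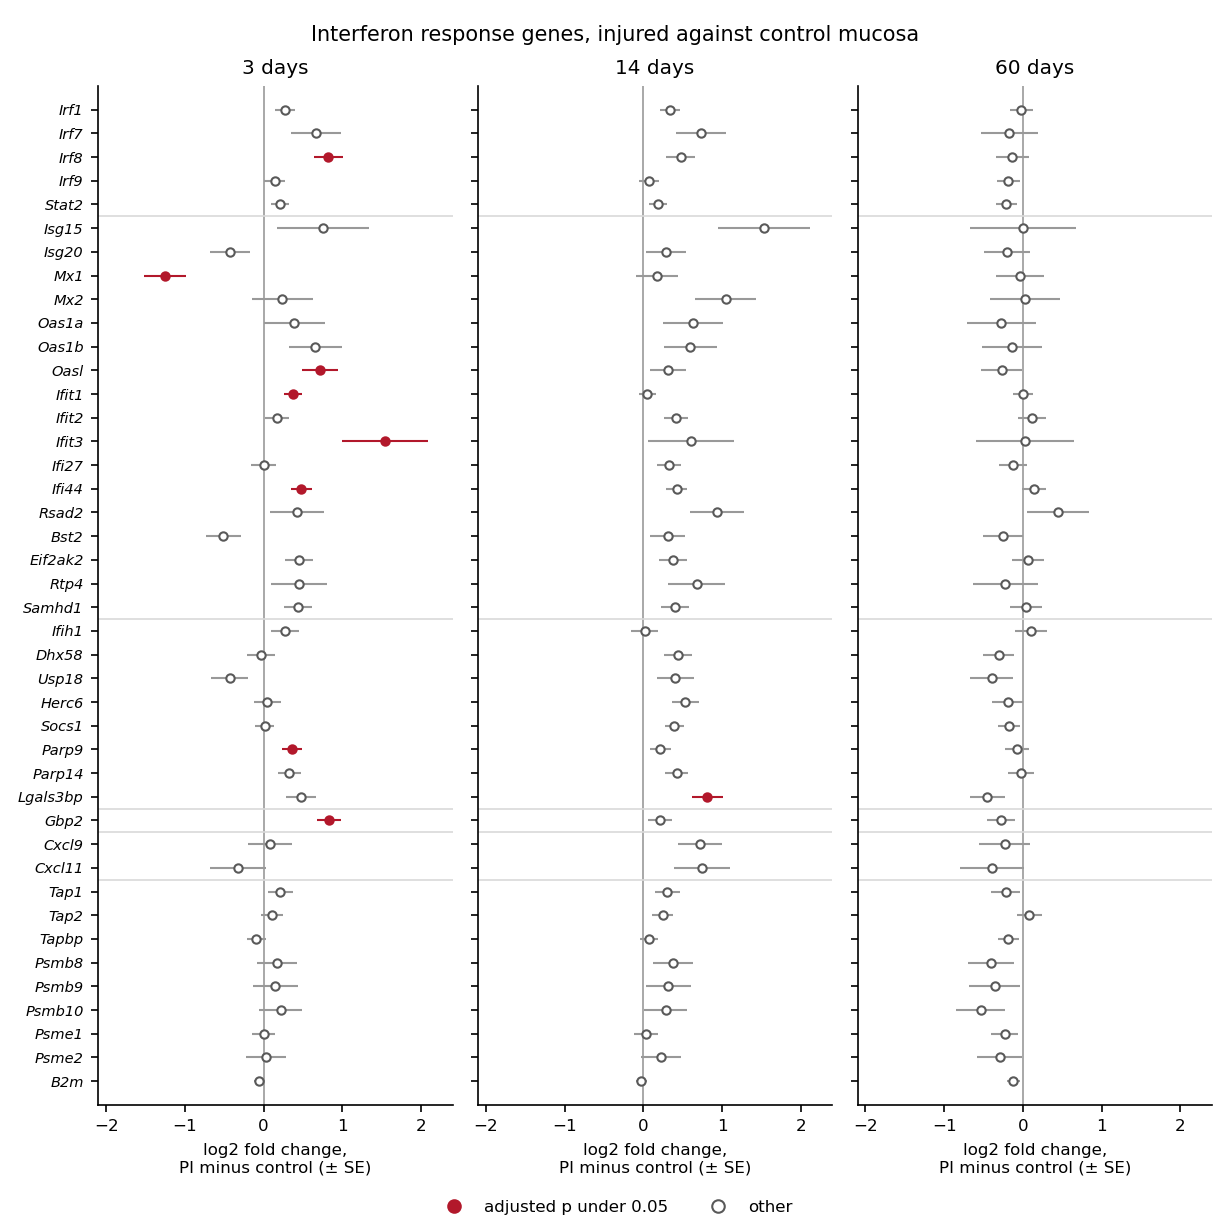
Log2 fold change of PI over control mucosa with its SE for each of the 42 interferon response genes, in panels for 3, 14 and 60 days and grouped by role; filled points passed limma's test at an adjusted p under 0.05. At 3 days 8 are filled (7 right of 0, Mx1 left of it), at 14 days Lgals3bp alone although 41 points lie right of 0, and at 60 days none.

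Over the PI groups alone, 23 of the 42 changed with time by limma's moderated F test, beside 38.5% of all genes. The count ran from 18 to 28 with a PI array left out, for which the shares of all genes are not given here. Of these 23, 16 were highest at 14 days and 7 at 3 days, whereas among all genes that changed 52.4% were highest at 3 days and 19.8% at 14 days. None of the 23 was highest at 60 days, against 27.8% of all genes that changed, and 20 were lowest there, against 37.2% of them. These rankings used PI means, not set against control. The 14-day means held PI replicate 5, the highest of its group for 39 of the 42, and the 3-day means held the deviating PI replicate 5. The members of the 16 included Isg15 (means of 8.33, 9.35 and 7.58 at 3, 14 and 60 days), Mx2 (7.07, 8.17 and 6.56), Oas1a (7.14, 7.72 and 6.64) and Usp18, the protease that removes Isg15 from its targets (9.20, 9.74 and 8.84). Herc6, which attaches Isg15 in rodents (5.95, 6.54 and 5.88), Socs1 (6.52, 6.65 and 6.18), Dhx58, Oas1b, Rtp4, Irf7, Ifit2, Rsad2, Cxcl9, Cxcl11, Mx1 and Lgals3bp were the others. Gbp2 changed most clearly (10.05, 9.12 and 8.75, adjusted p = 4.4e-07) and was highest at 3 days with Irf8, Irf9, Stat2, Oasl, Ifi44 and Parp9. Irf9 and Stat2 are partners in the complex that binds the ISRE. Neither passed the F test on its second probe set (adjusted p = 0.074 and 0.281 over probe sets). Nor did the second sets of Ifit2 (0.165), Socs1 (0.301) and Mx2 (0.278, a dim set). The other sets of Cxcl9 and Dhx58 passed, and Parp14 passed on its second set only (0.0297). None of the 9 class I processing genes passed this test on its chosen probe set. The second set of B2m, which was not used, did pass the F test (adjusted p = 0.0195 over probe sets). Across the 3 control groups none of the 42 passed limma's F test (lowest adjusted p = 0.52), against 0.0141% of all genes, and 2 had an unadjusted p under 0.05, against 6.7% of all genes, so no drift of the controls was detectable with 3, 3 and 2 arrays.

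In culture, the question was whether fibroblasts from scar differed from naive ones. Socs1 and Psmb10 were higher and Ifit3 and Stat2 lower in scar than in naive fibroblasts, 4 of the 42 in limma's test, beside 5.47% of all genes (2.63% higher, 2.84% lower). The median was -0.06, against 0.02 over all genes. Socs1, the feedback inhibitor of JAK kinases, was 7.48, 7.27, 7.25 and 7.47 in scar, against 6.98, 6.95 and 6.86 in naive cultures (1.35-fold, log2 0.44 ± 0.08, adjusted p = 0.0118). Psmb10 was 8.95, 8.96, 9.39 and 9.19 in scar, against 8.71, 8.74 and 8.66 in naive cultures (log2 0.42 ± 0.10, adjusted p = 0.0345). Ifit3 was 4.78, 4.53, 4.58 and 5.26 in scar, against 5.73, 5.39 and 5.46 in naive cultures (1.67-fold lower, log2 -0.74 ± 0.19, adjusted p = 0.0488). These groups did not overlap, although all Ifit3 signals were dim. Stat2 was 9.81, 10.12, 10.13 and 10.18 in scar, against 10.43, 10.41 and 10.57 in naive cultures, again without overlap (log2 -0.41 ± 0.11, adjusted p = 0.0461).
None of these 4 calls was firm. All 4 were lost when the scar and naive arrays were fitted alone, and the count ran from 0 without naive replicate 2 to 7 without scar replicate 4, with 1 without naive replicate 1, naive replicate 3 or scar replicate 3 and 2 without scar replicate 1 or 2. Shares of all genes for these counts are not given here. With the replicate number as a block none passed, and the adjusted p reached 0.151 for Stat2, 0.164 for Ifit3, 0.129 for Socs1 and 0.228 for Psmb10 over the alternatives. Socs1 was also lost with the mean of its probe sets (adjusted p = 0.0582 in limma's test). Its second set differed by 0.21 (adjusted p = 0.527 over probe sets). The second B2m set, which was not used, was lower in scar (log2 -0.42 ± 0.10, adjusted p = 0.0427 over probe sets). Elsewhere in the pathway, Slfn4 was higher in scar fibroblasts (log2 1.62 ± 0.20, adjusted p = 0.0026) and Mavs lower (-0.42 ± 0.09, adjusted p = 0.0256). The summed signal of 7 skeletal muscle markers was 1675 to 18276 in scar and 887 to 5828 in naive cultures. The part of muscle transcripts in the scar against naive values was not tested.

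The siRNA arm asked what loss of gp46 did to scar fibroblasts. The targeted gene, Serpinh1, was 12.43, 12.64 and 12.67 with gp46 siRNA, against 12.98, 12.96 and 12.93 with scramble siRNA, lower in each array (log2 -0.38 ± 0.10) but with an adjusted p of 1.00 in limma's test, as no gene of the 14217 passed (0%). The targeted gene thus went in the labelled direction, to 0.77 of the scramble level. No interferon response gene passed either, 3 of them had an unadjusted p under 0.05, against 2.1% of all genes, and the lognormal-normal model called 1, Oas1b. Oas1b, an oligoadenylate synthetase of rodents, was 4.20, 4.40 and 4.32 with gp46 siRNA, against 4.77, 4.72 and 4.82 with scramble siRNA (log2 -0.46 ± 0.20), without overlap but at dim signals. Rsad2 was 6.25, 6.44 and 6.24 with gp46 siRNA, against 5.86, 5.93 and 6.03 with scramble siRNA (log2 0.37 ± 0.35), also without overlap. Irf8 was 6.57, 6.28 and 6.29 with gp46 siRNA, against 6.98, 6.82 and 6.39 with scramble siRNA (log2 -0.35 ± 0.16), with overlapping ranges.

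Transfection itself could be set against no transfection, since both siRNA groups and the untreated scar cultures were scar fibroblasts. The siRNA, the liposomes and the additional 24 h of culture cannot be told apart in this contrast. Of the 42, 18 passed, 13 higher and 5 lower in transfected cells, which is close to the 39.1% of all genes that passed (20.6% higher, 18.6% lower), and transfected and untransfected arrays did not overlap for 12 of the 42, against 28.5% of all genes. The count is therefore no result about these genes as a set. The median was 0.09 (-0.01 over all genes). The roles differed in what they held. Of the 9 class I processing genes 6 passed, all higher, and 4 of these passed with same-numbered gp46 and scramble arrays averaged, Tap2 and Psmb9 being lost (adjusted p = 0.0678 and 0.0717 in limma's test). Of the 17 antiviral effectors 2 were higher and 3 lower, of which Eif2ak2 and Ifi27 were lost with the arrays averaged (adjusted p = 0.0538 and 0.0785). Of the 8 sensors, feedback and related genes 3 were higher and 1 lower, and of the 5 transcription factors 1 was higher and 1 lower.

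Isg20, an exonuclease of single-stranded RNA, changed most. It was 6.29, 6.52 and 6.64 with gp46 siRNA and 6.22, 6.43 and 6.36 with scramble siRNA, against 7.76, 7.99, 7.90 and 7.99 in untransfected scar cultures (2.83-fold lower, log2 -1.50 ± 0.08, adjusted p = 3.23e-07). All transfected arrays lay at least 1 log2 unit below all untransfected ones. Usp18 was 9.93, 9.90 and 9.72 with gp46 siRNA and 9.72, 9.78 and 9.76 with scramble siRNA, against 8.35, 8.37, 8.82 and 8.87 in untransfected cultures (2.29-fold higher, log2 1.20 ± 0.15, adjusted p = 7.9e-05). The other feedback gene went down: Socs1 was 6.79, 6.61 and 6.67 with gp46 siRNA and 6.54, 6.40 and 6.43 with scramble siRNA, against 7.48, 7.27, 7.25 and 7.47 in untransfected cultures (1.74-fold lower, log2 -0.80 ± 0.07, adjusted p = 4.73e-06). Neither gene overlapped between transfected and untransfected arrays, and both feedback genes moved, in opposite directions. A second probe set of Socs1 gave -0.30 (adjusted p = 0.0958 over probe sets).

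Irf1, the transcription factor that drives class I processing genes, was 9.82, 9.90 and 9.76 with gp46 siRNA and 9.85, 9.97 and 9.86 with scramble siRNA, against 8.71, 8.52, 9.34 and 9.59 in untransfected cultures (1.76-fold, log2 0.82 ± 0.18, adjusted p = 0.00387). Gbp2 was 9.74, 10.09 and 9.98 with gp46 siRNA and 9.69, 9.78 and 9.92 with scramble siRNA, against 8.80, 8.59, 9.46 and 9.33 in untransfected cultures (log2 0.82 ± 0.16, adjusted p = 0.00199). Neither overlapped, and the spread lay in the untransfected cultures, where replicates 3 and 4 were the higher ones for both. Psmb8, a catalytic subunit of the immunoproteasome, was 8.37, 8.65 and 8.63 with gp46 siRNA and 8.34, 8.69 and 8.68 with scramble siRNA, against 7.46, 7.26, 8.45 and 7.68 in untransfected cultures (log2 0.85 ± 0.21, adjusted p = 0.00759), with untransfected replicate 3 inside the transfected range. The other class I genes called were Tap2 (0.54, adjusted p = 0.0329), Psmb9 (0.53, adjusted p = 0.0201), Tapbp (0.53, adjusted p = 0.00364), Psmb10 (0.46, adjusted p = 0.00108) and the proteasome activator Psme2 (0.41, adjusted p = 0.00884). B2m, Tap1 and Psme1 did not pass. The chosen Tap1 probe set differed by 0.07 and a second, dim one by 0.36 (adjusted p = 0.0363 over probe sets).

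Rtp4 was 8.33, 8.66 and 8.41 with gp46 siRNA and 8.55, 8.46 and 8.39 with scramble siRNA, against 7.64, 7.53, 7.83 and 8.02 in untransfected cultures (log2 0.71 ± 0.10, adjusted p = 0.000173). Parp14, an ADP-ribosyltransferase, was 9.34, 9.20 and 9.07 with gp46 siRNA and 9.38, 9.29 and 9.23 with scramble siRNA, against 8.46, 8.61, 8.91 and 8.79 in untransfected cultures (log2 0.56 ± 0.09, adjusted p = 0.000578). Neither gene overlapped between transfected and untransfected arrays. The RNA sensor Ifih1 (0.51, adjusted p = 0.0025) and the RNA-dependent kinase Eif2ak2 (0.32, adjusted p = 0.0268) were higher as well, whereas Stat2 (-0.55, adjusted p = 0.000511), Ifit2 (-0.35, adjusted p = 0.0139) and Ifi27 (-0.24, adjusted p = 0.0249) were lower. Isg15 (0.20), Mx2 (0.08), Cxcl9 (0.06) and Cxcl11 (0.10) did not pass, and Mx1 was -0.56 (adjusted p = 0.0768) at dim signals. Of the 18 calls, 13 held in every alternative tried (Isg20, Usp18, Socs1, Irf1, Gbp2, Psmb8, Psmb10, Tapbp, Psme2, Rtp4, Parp14, Ifih1 and Stat2), and 5 did not. Ifit2 was lost with scramble siRNA alone and with the replicate block (adjusted p up to 0.0983). Psmb9 was lost without untransfected replicate 1 or 2 and with gp46 siRNA alone. Ifi27 was lost without untransfected replicate 1 or 4 or replicate 3 of either siRNA group, with the block and with scramble siRNA alone. Eif2ak2 was lost without untransfected replicate 1, 3 or 4, gp46 siRNA replicate 1 or scramble siRNA replicate 2, with the block and with gp46 siRNA alone. Tap2 was lost without untransfected replicate 1, 2 or 3, gp46 siRNA replicate 2 or 3, or scramble siRNA replicate 1 or 3 (adjusted p up to 0.0962), with the compared arrays alone and with either siRNA alone. The lognormal-normal model called none of these 5.

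**Figure D4:**
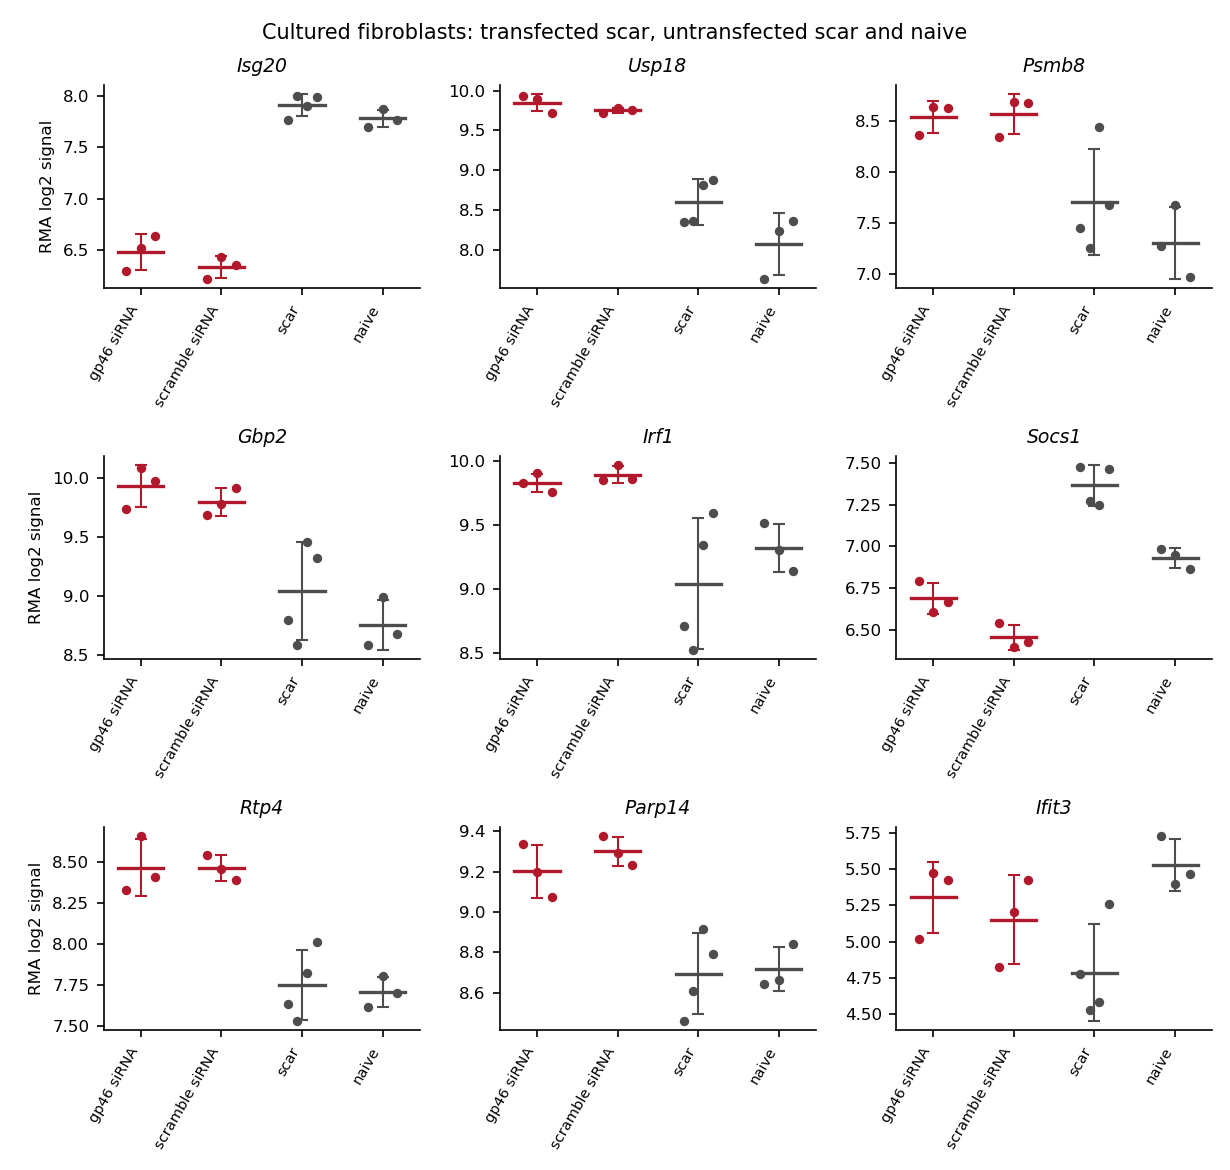
Log2 signal of the 8 interferon response genes of largest change between transfected and untransfected scar fibroblasts, and of Ifit3, on each of the 13 fibroblast arrays (gp46 siRNA and scramble siRNA in red, untransfected scar and naive in grey); points are arrays, bars means and whiskers SD. Both siRNA groups sit together, below scar for Isg20 and Socs1 and above it for Usp18, Irf1, Gbp2, Rtp4 and Parp14.

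With scramble siRNA alone as the transfected group 15 of the 42 passed (30% of all genes), and 15 also with gp46 siRNA alone (32.5% of all genes). Same-numbered gp46 and scramble arrays deviated together and may share a culture, and with each such pair averaged to 1 array 14 passed (31.1% of all genes). Among the other pathway genes, the receptor chains Ifnar1 (0.82, adjusted p = 0.018) and Ifnar2 (0.17, adjusted p = 0.047) were higher in transfected cells. Of 12 nucleic acid sensors and adaptors 1 was higher and 4 lower, with Zbp1 at -0.9996 (adjusted p = 0.0006), and of 16 signal transducers and regulators 2 were higher and 2 lower. Of the 31 further interferon-stimulated genes, 11 passed, 9 of them higher, with Ifi44l (1.33) the largest rise and Casp4 (-1.26) and Ifi27l2b (-1.19) the falls. Over these 4 lists 22 of 68 passed, 14 higher and 8 lower, against 39.1% of all genes. Of the fibroblast markers 6 of 10 were lower in transfected cells (95537 to 105949 with gp46 siRNA and 96205 to 99832 with scramble siRNA, against 110098 to 125908 in untransfected scar cultures). The muscle sum was 370 to 1072 with gp46 siRNA and 320 to 1075 with scramble siRNA, against 1675 to 18276 in untransfected scar cultures, with 2 of 7 markers lower. The part of these in the transfection values of Isg20, Usp18 and the others was not tested.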

How the data were processed

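RNA was hybridised to Affymetrix Rat Genome arrays. The deposited table holds log2 values that the authors made by robust multi-array averaging (RMA, affy package). Its sorted values differed between the 36 arrays by at most 0.03, so the arrays share a distribution, and counts of molecules or depth do not apply: precision is set by the number of arrays. Of 31042 probe sets other than controls, 20826 had a single symbol, which gave 14217 genes. Oas1a, Dhx58 and B2m were read by probe sets whose design allows matches to other transcripts.

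Groups were taken from the labels. The 23 mucosa arrays were fitted together and the 13 fibroblast arrays together with limma 3.58.1 in R 4.3.3 (lmFit, eBayes, contrasts and moderated F), with Benjamini-Hochberg adjustment over all genes and calls at an adjusted p under 0.05. The fit was tested on simulated data. The study's lognormal-normal model was written anew as an alternative (posterior over 0.95). Other alternatives were array weights, repeated quantile normalization, other probe set rules, a filter on dim genes, pooled controls, compared groups alone, a replicate block and each array left out. Numbers paired only the gp46 and scramble arrays, whose same-numbered deviations correlated at 0.43, 0.18 and 0.47; the labels do not state that they share a culture. All values are printed for up to 8 genes of largest change called per comparison, or 3 where none was called. The members, lists and rules were chosen with earlier results of these data known.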

Additional observations from a re-analysis of the deposited data

Results flagged for a closer look

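Some arrays stood apart from their group for single genes, by the gap to the nearest array relative to the range (Dixon's test). This held in 18 of 168 gene and group combinations (10.7%), where the nominal level of the test is 1 in 20. Genes on the same array are not independent, and the share over all genes is not given here. In 3-day PI mucosa, replicate 1 was low for Irf8 (9.88), and replicate 5 was low for Ifi27 (12.8), Psmb9 (9.94), Psmb10 (9.04) and Psme2 (10.5). In 60-day PI mucosa all came from replicate 4, which was low for Ifi27 (12.5), Bst2 (10.6), Rtp4 (7.63), Psmb8 (8.70), Psmb9 (9.41), Psmb10 (8.48), Psme1 (11.8) and Psme2 (10.0) and high for Eif2ak2 (9.06) and Parp14 (9.76). These replicates 5 and 4 are among the 3 arrays that deviated together over all genes. Within its group, replicate 5 was lowest for 37.4% and highest for 34% of all genes. For replicate 4 these shares were 42.9% and 31.1%. The flags are therefore not shown to be a trait of the interferon response genes. In scar fibroblasts, Stat2 was low in replicate 1 (9.81), and Bst2 (8.31) and Tap2 (8.54) were high in replicate 4.

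The injury effect differed between times in limma's test for 4 genes: for Mx1 the effect at 14 days was higher than that at 3 days by 1.43, and at 60 days against 3 days the difference was -0.95 for Irf8, -0.93 for Lgals3bp and -1.11 for Gbp2.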

How the results depend on the processing

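Over the alternatives, 159 of the recomputed counts of calls stayed within 1.5 times their value and 43 did not. Array weights gave 27 calls in place of 8 for PI against control at 3 days (58.6% of all genes), 13 in place of 1 at 14 days (14.7%), 7 in place of 1 for the effect at 14 days against 3 days (35.6%), 14 in place of 3 at 60 days against 3 days (33.7%), and 4 in place of 0 across the control groups (14%). Without the 3 arrays that deviated together, the counts were 14 at 3 days (38.5% of all genes), 0 at 14 days (3.5%) and 11 for 60 days against 3 days (24.9%). With controls of all ages pooled there were 13 at 3 days (39% of all genes) and 8 at 14 days (6.18%). The lognormal-normal model gave 0 at 14 days, 1 for scar against naive fibroblasts and 1 for gp46 siRNA against scramble siRNA, and the compared arrays alone gave 0 for scar against naive. With the replicate block, for groups that share only a number, there were 3 calls at 14 days and 0 for scar against naive fibroblasts, and the block moved no other count by over 1.5 times. Leaving out an array at a time gave 3 to 10 calls at 3 days, 0 to 4 at 14 days, 0 to 2 for 14 days against 3 days, 1 to 5 for 60 days against 3 days, and 0 to 7 for scar against naive. Shares of all genes were not set beside the counts of the lognormal-normal model, the compared arrays alone, the replicate block or left-out arrays. Those shifts are therefore not shown to be a trait of the interferon response genes. For single genes, 6683 values kept direction and side of the threshold, 130 gained a call, 110 lost it, and Ifi27 at 3 days turned to 0.17 with array weights. Averaging gp46 and scramble arrays of the same number, chosen after seeing the data, gave 14 calls against untransfected cultures. The cause of these shifts was not tested. Few arrays, above all 2 controls at 60 days, limit the precision. So do dim signals for Ifit1 and Oas1b in mucosa and culture and for Ifit3 in culture.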
